A study of Homo sapiens with 3 samples.

Results

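ATF4, CHOP (encoded by DDIT3) and their partner factors are the transcription factors and feedback genes of the integrated stress response. The group was given as a list of 9 genes, ATF4, ATF3, ATF5, DDIT3, CEBPB, CEBPG, TRIB3, PPP1R15A and NUPR1. All 9 were found by symbol in the deposited comparison table and by Entrez identifier in the count files, among 25702 genes in all. Of the 9, 8 had at least 10 counts in at least 1 library and were tested, and NUPR1 did not.

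Molm13 cells are an established human line of acute myeloid leukemia in which FLT3 has an internal tandem duplication. Asynchronous Molm13 cells were exposed for 6 h to DMSO, the vehicle, or to 50 nM or 100 nM pyrvinium, an anthelmintic compound, and RNA was sequenced from 1 library per condition. The counts summed to 23165771 with DMSO, 22677038 at 50 nM and 24075123 at 100 nM. With 1 library per condition, no difference has a replicate check, each test compares a pair of libraries and not the conditions, and each 95% interval covers counting error only.

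In the integrated stress response, kinases that sense different stresses phosphorylate the initiation factor eIF2, which lowers general translation while ATF4 mRNA, with its upstream reading frames, is translated more. ATF4 is a basic leucine zipper (bZIP) factor that binds DNA as a dimer, often with a C/EBP protein, at C/EBP-ATF response elements (CAREs). Its targets include DDIT3, ATF3, TRIB3 and PPP1R15A, of which TRIB3 and PPP1R15A act back on the pathway.

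The cell line label was set against marker genes. Of 12 myeloid leukemia markers, 11 passed the count filter, and the summed level of the 12 was 643 with DMSO, 641 at 50 nM and 655 at 100 nM, in counts per kilobase of exon and 1000000 scaled counts, the scale of every level given here. By mean level over the 3 libraries, LYZ, a lysozyme of myeloid cells, was the most abundant of them, and CEBPA, a myeloid C/EBP factor, came next, although FLT3 (121) was above CEBPA (116) at 100 nM. At 100 nM against DMSO, 3 of the 11 had a counting interval above 0 and 4 below it, shares near those of all tested genes (24.0% and 25.3%), among them FLT3 with a log2 fold change of 0.770 (interval 0.725 to 0.814) and SPI1 with -0.316 (interval -0.393 to -0.239). CD14, a monocyte antigen, had 2, 2 and 1 counts. The 5 T cell markers summed to 13.5, 17.1 and 18.8, nearly all from TRAC, with CD3E and CD2 at 0 counts in the 3 libraries and CD3D at 26, 18 and 13 counts. The 5 erythroid markers summed to 0.0749, 1.498 and 0.0156, because HBB had 16 counts and HBA2 had 4 at 50 nM and neither had any in the other libraries. Summed levels of the B cell markers (most abundant gene CD79B) lay between 0.269 and 0.403, and those of the megakaryocyte (ITGA2B), epithelial (KRT8) and fibroblast (COL1A1) markers lay at or below 0.239 in each library. The part of the TRAC and HBB counts in the results was not tested.

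ATF4 itself was by far the most abundant member. Its mRNA (Entrez 468, hg19 chr22:39916569-39918691, plus strand, 2 exons) had 12788 counts with DMSO, 16646 at 50 nM and 18669 at 100 nM. Per length, the level was 273, 364 and 383 in that order, and the DMSO level lay at percentile 98.2 of the genes tested. Both pyrvinium libraries were above DMSO, and most of the difference was already there at 50 nM. The log2 fold change against DMSO was 0.415 at 50 nM (interval 0.381 to 0.448) and 0.489 at 100 nM (interval 0.456 to 0.521). Between the pyrvinium libraries it was 0.0742 (interval 0.0440 to 0.104). GENCODE names 4 processed pseudogenes of ATF4, none of which is in the count files, so reads shared with these copies are uncertain.

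ATF3 and ATF5 are bZIP factors that are also induced in the integrated stress response. ATF3 (Entrez 467, chr1:212738697-212794117, plus strand, 5 exons) had 213 counts with DMSO, 221 at 50 nM and 349 at 100 nM. The 50 nM and DMSO libraries did not differ beyond counting error (log2 fold change 0.0874, interval -0.191 to 0.366), and the 100 nM library stood above both. At 100 nM the log2 fold change was 0.654 against DMSO (interval 0.405 to 0.908) and 0.567 against 50 nM (interval 0.321 to 0.818). ATF5 (Entrez 22809, chr19:50431959-50437193, plus strand, 4 exons) rose at each step, with 1045, 1174 and 1576 counts. Its log2 fold change was 0.202 at 50 nM (interval 0.0808 to 0.324) and 0.536 at 100 nM (interval 0.422 to 0.650). Opposite-strand exons of NUP62 cover 75 bases of the ATF5 exons in the annotation that was counted, or 3.16% of their length, and 563 bases in GENCODE, or 23.7%. IL4I1, also on the opposite strand, covers 75 bases in both annotations. NUP62 had 6330, 5705 and 5811 counts and IL4I1 had 6, 7 and 25, and the part of either in the ATF5 counts was not tested.

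DDIT3 encodes CHOP, a C/EBP homolog linked to cell death under lasting stress. The gene (Entrez 1649, chr12:57910371-57914300, minus strand, 3 exons) had 236 counts with DMSO, 319 at 50 nM and 500 at 100 nM. The counts of the 3 libraries were well apart and in the order of the dose. The log2 fold change was 0.468 at 50 nM (interval 0.222 to 0.718), 1.02 at 100 nM (interval 0.80 to 1.26) and 0.556 between the pyrvinium libraries (interval 0.352 to 0.764). The 100 nM value is just past 2-fold, and its interval reaches below it. Exons of MARS1, which encodes methionyl-tRNA synthetase on the opposite strand, cover 63 bases of the DDIT3 exons in the annotation that was counted, or 5.35% of their length, and 355 bases in GENCODE, or 30.1%. MARS1 had 6473, 7791 and 9133 counts, also in the order of the dose. The library kit was strand-specific, but use of the strand in counting is not given in the sources used here, so the DDIT3 counts are uncertain to that extent, and the part of MARS1 reads in them was not tested.

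The C/EBP members pair with ATF4 or CHOP. CEBPB (Entrez 1051, chr20:48807376-48809212, plus strand, 1 exon) had 237 counts with DMSO, 304 at 50 nM and 399 at 100 nM. The log2 fold change of CEBPB was 0.393 at 50 nM (interval 0.144 to 0.645) and 0.693 at 100 nM (interval 0.459 to 0.933). CEBPG, a short factor that forms dimers with ATF4, was far more abundant. CEBPG (Entrez 1054, chr19:33864609-33873592, plus strand, 2 exons) had 3191, 3586 and 4407 counts, and log2 fold changes of 0.203 at 50 nM (interval 0.133 to 0.272) and 0.409 at 100 nM (interval 0.343 to 0.475). Both rose at each dose. An antisense gene in GENCODE, CEBPB-AS1, covers 231 bases of CEBPB, or 12.6% of its length.

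The feedback genes differed from each other in size of change. TRIB3, a pseudokinase that binds ATF4 and CHOP and restrains them, changed most of all tested members. TRIB3 (Entrez 57761, chr20:361308-378203, plus strand, 4 exons) had 1739 counts with DMSO, 2480 at 50 nM and 4101 at 100 nM. That is a 2.27-fold level at 100 nM, with a log2 fold change of 1.18 (interval 1.10 to 1.26), wholly past 2-fold. At 50 nM it was 0.546 (interval 0.457 to 0.636), and between the pyrvinium libraries it was 0.634 (interval 0.562 to 0.707). PPP1R15A, known as GADD34, brings protein phosphatase 1 to eIF2 and changed least of the tested members at 100 nM. PPP1R15A (Entrez 23645, chr19:49375649-49379319, plus strand, 3 exons) had 838, 938 and 1134 counts, and log2 fold changes of 0.197 at 50 nM (interval 0.0610 to 0.333) and 0.379 at 100 nM (interval 0.249 to 0.510).

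NUPR1, a small stress-induced chromatin protein, was close to undetected. NUPR1 (Entrez 26471, chr16:28548662-28550495, minus strand, 3 exons) had 1 count with DMSO, 1 at 50 nM and 6 at 100 nM. The log2 ratio of 100 nM to DMSO was 2.06, with a counting interval from -0.515 to 8.05, so no difference was detectable at this depth.

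**Figure D1:**
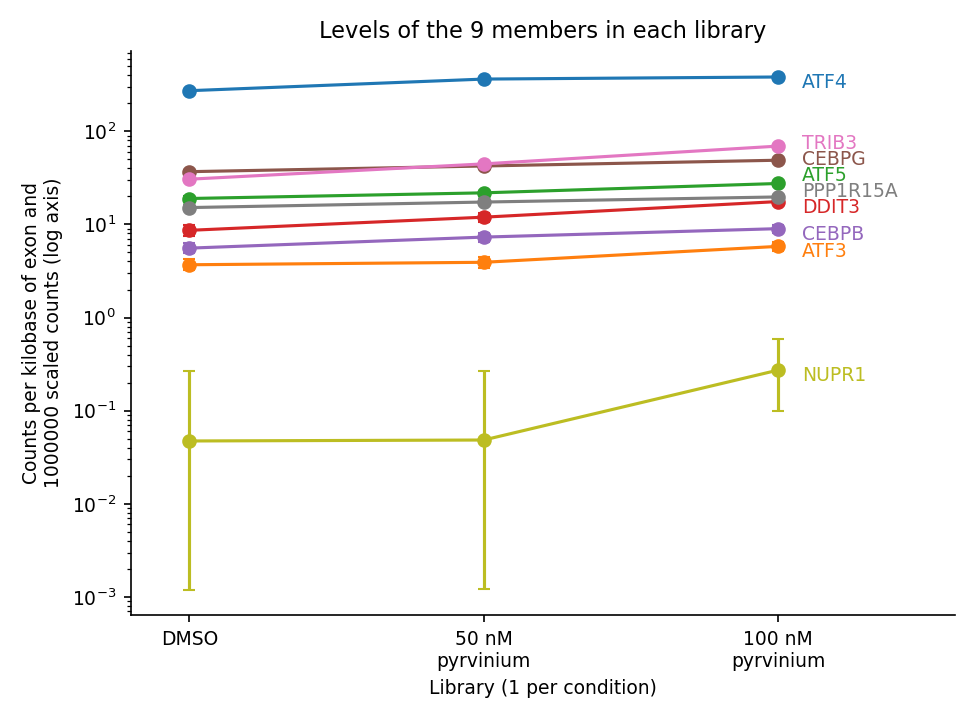
Level of each member in each of the 3 libraries, in counts per kilobase of exon and 1000000 scaled counts on a log axis, with 95% exact Poisson intervals as bars. ATF4 lies between 273 and 383, above every other member, and NUPR1 lies at or below 0.273.

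Per length, the order of levels in the DMSO library was ATF4, CEBPG (36.9), TRIB3 (30.6), ATF5 (19.0), PPP1R15A (15.2), DDIT3 (8.64), CEBPB (5.57), ATF3 (3.69) and NUPR1 (0.0473), and no neighbours in it had overlapping counting intervals. At 50 nM the level of TRIB3 (44.7, interval 42.9 to 46.5) overlapped that of CEBPG (42.4, interval 41.0 to 43.8). At 100 nM TRIB3 stood at 69.4 (interval 67.3 to 71.5) and CEBPG at 48.9 (interval 47.5 to 50.4), so TRIB3 was then above CEBPG. DDIT3 at 100 nM (17.6, interval 16.1 to 19.2) came to overlap PPP1R15A (19.7, interval 18.6 to 20.9), which had been well above it in DMSO.

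Read together, the 8 tested members were all higher at 100 nM than in DMSO. A gene was called when its counts differed 2-fold or more and an exact binomial test, adjusted by Benjamini-Hochberg over all tested genes, gave p of 0.05 or less. At 100 nM against DMSO, 2 of 8 members (DDIT3 and TRIB3) were called higher, beside 1.72% of all 12879 genes tested. For the adjusted p of the exact binomial test, DDIT3 had 3.93e-19 and TRIB3 had 2.32e-193. The counting interval lay above 0 for 8 of 8 members, beside 24.0% of all genes. At 50 nM against DMSO, 0 of 8 were called higher, beside 0.699% of all genes, and 7 of 8 had an interval above 0, beside 18.6%. At 100 nM against 50 nM, 0 of 8 were called higher, beside 0.202%, and 8 of 8 had an interval above 0, beside 12.5%. The median log2 fold change of the 8 was 0.595 at 100 nM, 0.298 at 50 nM and 0.317 between the doses, beside medians of all tested genes of -0.00235, 0.000711 and 0.000919. The members' changes at 100 nM lay between percentiles 85.8 (PPP1R15A) and 98.0 (TRIB3) of all tested genes. The comparisons share libraries, so their values are not independent of each other. When a coefficient of variation of 0.2 between replicates was assumed (exact test of edgeR), neither DDIT3 nor TRIB3 was called at 100 nM.

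**Figure D2:**
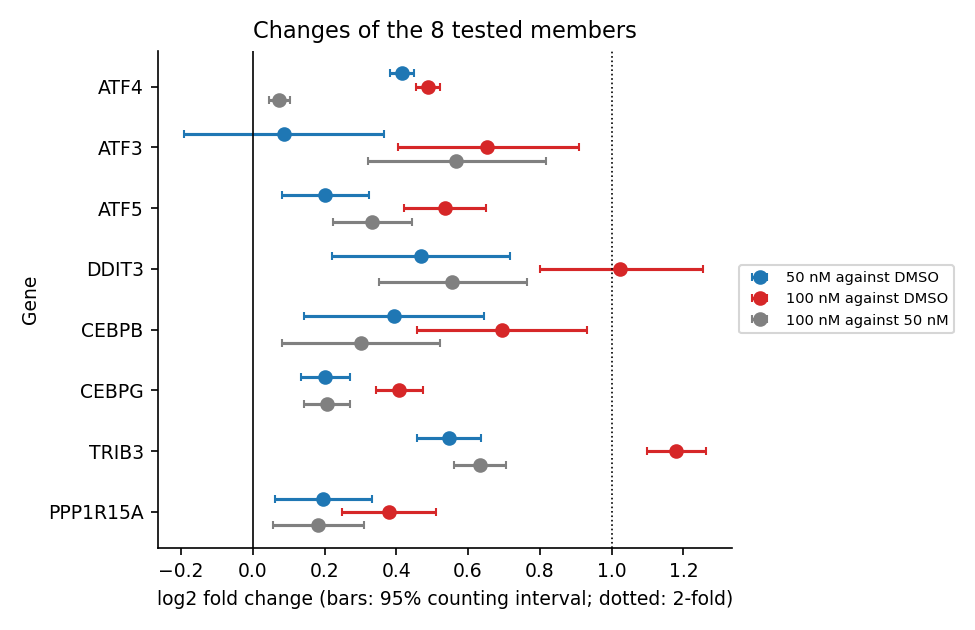
Log2 fold change of the 8 tested members in each comparison, with 95% counting intervals as bars and 2-fold as a dotted line. ATF4 has most of its change at 50 nM (0.415 of 0.489), while ATF3 has 0.0874 at 50 nM and 0.654 at 100 nM.

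From DMSO to 100 nM, some members changed in step with ATF4 within counting error and some did not. Each of the 7 departed from ATF4 beyond counting error in at least 1 comparison. Counts of each member were set against ATF4 counts of the same library, a ratio that no scaling of the libraries alters. TRIB3 had 13.6% of the ATF4 counts in DMSO, 14.9% at 50 nM and 22.0% at 100 nM. DDIT3 had 1.85%, 1.92% and 2.68%. These ratios rose mainly between the pyrvinium doses, with log2 changes of 0.560 for TRIB3 (interval 0.482 to 0.638) and 0.483 for DDIT3 (interval 0.278 to 0.688). From DMSO to 50 nM, 1 of 7 members rose against ATF4 beyond counting error, TRIB3 by 0.132 (interval 0.0372 to 0.226), beside 0.987% of 12872 other tested genes with counts in both libraries. The ratios of DDIT3 (0.0544, interval -0.191 to 0.299) and CEBPB (-0.0212, interval -0.268 to 0.226) did not change beyond counting error there. The ratios of ATF3, ATF5, CEBPG and PPP1R15A to ATF4 fell at 50 nM, by 0.327 (interval -0.601 to -0.0537), 0.212 (interval -0.337 to -0.0877), 0.212 (interval -0.288 to -0.136) and 0.218 (interval -0.356 to -0.0793) on the log2 scale, 4 of 7 beside 74.7% of the other genes. Between the doses, the ratios of ATF3 (0.494, interval 0.249 to 0.739), ATF5 (0.259, interval 0.146 to 0.372), CEBPB (0.227, interval 0.00948 to 0.444) and CEBPG (0.132, interval 0.0616 to 0.202) also rose, so 6 of 7 rose and 0 fell, beside 5.46% and 28.9% of 12870 other genes. The PPP1R15A ratio did not change beyond counting error between the doses (0.108, interval -0.0201 to 0.237). From DMSO to 100 nM, 2 of 7 members had risen against ATF4 beyond counting error, TRIB3 by 0.692 (interval 0.605 to 0.779) and DDIT3 by 0.537 (interval 0.312 to 0.763), beside 2.16% of 12868 other genes. Over the same span the log2 change of the CEBPG ratio was -0.0801 (interval -0.153 to -0.00676), 1 of 7 that fell beside 74.7% of the other genes, and ATF3, ATF5, CEBPB and PPP1R15A did not change beyond counting error.

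The genes nearest to the called members were found among 9971 other genes whose mean was 100 counts or more, by the Euclidean distance between pairs of log2 fold changes at 50 nM and 100 nM, over 3 libraries. For DDIT3 these were KRCC1 (distance 0.0214), PGAP3 (0.0717) and CSAD (0.0770). KRCC1 had 216 counts with DMSO, 296 at 50 nM and 455 at 100 nM. For TRIB3 they were TRAPPC6A (0.0261), METAP1D (0.0556) and PPM1M (0.0679). METAP1D had 209, 309 and 486 counts.

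Most members are compact genes. Of the 9, 7 span less than 10000 bases, beside 28.5% of the 12879 tested genes, while TRIB3 spans 16896 and ATF3 spans 55421. Their median of 3 exons stands beside 8 for the tested genes. Median exon length was more alike, at 2375 and 2774 bases.

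The starts of the members were searched for letters of the sites that these factors bind, because the 8 tested members were all higher at 100 nM than in DMSO. Both strands of hg19 were read within 1000 bases on either side of the first base of each deposited gene. The motifs were TGATGNAAN (CARE), TGACGTCA (the cyclic AMP response element, CRE), TTGCNNAA and its palindromic form TTGCGCAA (C/EBP), CCAAT, and the endoplasmic reticulum stress element (ERSE), which itself contains CCAAT. A CARE match lay near 5 of 9 members (ATF3, DDIT3, CEBPG, TRIB3 and NUPR1), beside 20.8% of 25633 genes. NUPR1 was not among the tested members. Within the 1000 bases before the start alone, CARE matched in 2 of 9 (ATF3 and DDIT3), beside 12.3%. A CRE match lay near 1 of 9, PPP1R15A, beside 3.69%. TTGCNNAA matched near 4 of 9, beside 52.6%, and CCAAT near 7 of 9, beside 87.8%. TTGCGCAA matched near 0 of 9, beside 0.609%, and ERSE near 0 of 9, beside 0.218%. A match describes the letters and is not evidence of binding.

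The CARE and CRE matches are shown on the strand of each gene with 30 bases in all, the matching letters in capitals.
DDIT3, chr12:57914585-57914614, 304 bases before the start: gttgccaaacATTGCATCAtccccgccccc
TRIB3, chr20:361525-361554, 227 bases after the start: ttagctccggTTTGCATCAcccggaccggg
CEBPG, chr19:33864967-33864996, 368 bases after the start: gcgcggcgtcTGATGCAACctgccggcaac
NUPR1, chr16:28550368-28550397, 108 bases after the start: aaggggccagATTGCATCAgacagggcctg
ATF3, chr1:212738548-212738577, 139 bases before the start: aaggtcaggaTGATGGAAGgctgtcatatt
PPP1R15A, chr19:49375609-49375638, CRE 29 bases before the start: gcctctcttcgTGACGTCAgcacgccgggc

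TRIB3 has 3 copies of its site. The 30 bases recur without a difference at chr20:361558-361587 and chr20:361591-361620, each 33 bases from the last, inside exon 1 of the deposited gene and in an untranslated region in GENCODE. Of the sites shown, the CARE core is on the opposite strand in DDIT3, NUPR1 and TRIB3, and on the strand of the gene in CEBPG and ATF3. The NUPR1 site lies in exon 1 of the deposited gene but outside the GENCODE gene, and the CEBPG site in a GENCODE intron. The DDIT3 site shown is before the deposited gene but in an intron of a longer GENCODE transcript. The CRE of PPP1R15A is likewise before the deposited gene but in an untranslated region in GENCODE. DDIT3 has 2 more matches, also in an intron, at 821 bases after the start on the opposite strand and at 878 on the strand of the gene. ATF4, ATF5, CEBPB and PPP1R15A had no CARE match in this window.

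Before the deposited start of DDIT3, matches to several motifs lie within a short stretch. The matches are in introns in GENCODE, and bases of an annotated exon lie between the CARE match and the CCAAT matches. Of the 300 bases from 320 to 21 before the start, the 94 and 172 bases that hold no annotated exon in GENCODE are shown on the strand of the gene, the first with a C/EBP match (TTGCCAAA) separated by 1 base from the CARE match, and the other with 2 CCAAT matches, all in capitals.
DDIT3, chr12:57914527-57914620, minus strand: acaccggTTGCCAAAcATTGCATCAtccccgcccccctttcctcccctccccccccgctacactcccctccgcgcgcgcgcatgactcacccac
DDIT3, chr12:57914321-57914492, minus strand: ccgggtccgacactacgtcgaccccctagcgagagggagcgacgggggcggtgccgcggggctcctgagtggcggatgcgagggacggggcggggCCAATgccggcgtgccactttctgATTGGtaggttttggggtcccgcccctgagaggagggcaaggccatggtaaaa

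In the RefSeq promoter windows of GRCh38.p14, which run from 250 bases before to 50 after a start, 8 of 9 members had an entry, with 17 windows. CARE matched 2 of the 17 (in ATF3 and CEBPG), beside 3.61% of 35116 windows, and CRE matched 1 (in PPP1R15A), beside 1.85%. TTGCNNAA matched 4 (in ATF3, ATF5 and PPP1R15A), beside 10.5%, and CCAAT matched 6, beside 34.6%. No DDIT3 window held a CARE or TTGCNNAA match. TTGCGCAA and ERSE matched 0, beside 0.151% and 0.0769%.

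Upstream of ATF4, the mRNAs of the eIF2 kinases and their partners went in both directions. Of 21 such genes, all tested, 0 were called at 100 nM, beside 1.72% of all genes called higher and 0.474% lower. An interval above 0 was found for 7 and below it for 8, beside 24.0% and 25.3% of all genes, and the median log2 fold change was -0.0432. The 2 with the highest mean level were PPP1CC, a catalytic subunit of protein phosphatase 1, with 9306, 8945 and 9168 counts, and EIF2S3, a subunit of eIF2, with 8429, 8784 and 8865 counts. The OMA1 protease and DELE1, which relay mitochondrial stress to HRI, had log2 fold changes of 0.565 (interval 0.379 to 0.754) and 0.322 (interval 0.218 to 0.427) at 100 nM. EIF2S2, a subunit of eIF2, had 0.385 (interval 0.327 to 0.443), and EIF2B4, a subunit of its exchange factor, had -0.434 (interval -0.561 to -0.308). Of the kinases, EIF2AK1 (HRI) had 4290, 4145 and 4194 counts, EIF2AK2 (PKR) 239, 192 and 235, EIF2AK3 (PERK) 380, 408 and 447, and EIF2AK4 (GCN2) 1253, 1191 and 1156. At 100 nM, EIF2AK1 (log2 fold change -0.0896, interval -0.151 to -0.0279) and EIF2AK4 (-0.173, interval -0.290 to -0.0568) were lower. EIF2AK2 (-0.0813, interval -0.347 to 0.185) and EIF2AK3 (0.177, interval -0.0233 to 0.378) did not differ beyond counting error. PPP1R15B, the constitutive counterpart of PPP1R15A, had 2210, 2243 and 2511 counts and a level of 19.7 per length at 100 nM, the same as that of PPP1R15A to 3 digits. In DMSO the level of PPP1R15B was 18.1 and that of PPP1R15A was 15.2. The log2 fold change of PPP1R15B at 100 nM was 0.127 (interval 0.0442 to 0.210).

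Among 40 other bZIP factors, 36 were tested, and 2 were called higher and 0 lower at 100 nM, beside 1.72% and 0.474% of all genes. The called genes were JUN and JDP2, a repressor of the AP-1 family, and neither is a C/EBP protein. JUN had 46 counts with DMSO, 87 at 50 nM and 116 at 100 nM (log2 fold change interval at 100 nM 0.773 to 1.80), and JDP2 had 308, 536 and 703 (interval 0.938 to 1.33). The median of the 36 was 0.0413, and 14 had an interval above 0 and 7 below, beside 24.0% and 25.3% of all genes. With an assumed coefficient of variation of 0.2, neither JUN nor JDP2 was called. XBP1, the most abundant, had 6769, 6333 and 8437 counts. Of the other C/EBP factors, CEBPE (15, 14 and 13 counts) did not differ beyond counting error, and CEBPD and CEBPA were lower. CEBPD had 746, 565 and 694 counts (log2 fold change -0.161 at 100 nM, interval -0.312 to -0.0102), and CEBPA, a myeloid factor, had 7592, 6686 and 7243 counts (log2 fold change -0.125 at 100 nM, interval -0.172 to -0.0782). CEBPA still had a level of 116 per length at 100 nM, above CEBPG at 48.9 and CEBPB at 9.01.

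Downstream, the amino acid response targets of ATF4 were mostly higher. Of 39, 37 were tested, and 12 were called higher and 0 lower at 100 nM, beside 1.72% and 0.474% of all genes. This list, like the members and the other lists, was chosen with earlier results of these data known. Its share is therefore not independent of these data. An interval above 0 was found for 36 of the 37, beside 24.0% of all genes, and the median log2 fold change was 0.673 at 100 nM and 0.449 at 50 nM. CHAC1, which degrades glutathione, had 88, 219 and 382 counts, and CTH, which makes cysteine, had 241, 591 and 919. ASNS, which makes asparagine, had 2162, 3978 and 5853. The others called were PSAT1, SLC7A11, SLC6A9, SESN2, DDIT4, PCK2, VEGFA, STC2 and VLDLR. Of the 12, CTH and CHAC1 were also called when a variation of 0.2 between replicates was assumed, and the other 10 were not. EIF4EBP1 (5980, 6118 and 7025 counts) and MTHFD2 (11249, 14768 and 19436) had the highest mean levels per length over the 3 libraries, and neither was called. PSAT1, which was called, stood above both at 100 nM, at 367. ATF4 at 0.489 lay below the median of this list. GDF15 had 0, 0 and 1 counts and FGF21 had 0 in each library, so these secreted markers of the pathway were not measurable, as for NUPR1. A count of 0 allows a share of up to 1.25e-05% of the total at 100 nM.

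The death genes linked to CHOP gave 0 calls of 12, all tested, at 100 nM, beside 1.72% of all genes called higher and 0.474% lower. An interval above 0 was found for 4 and below it for 5, beside 24.0% and 25.3% of all genes, and the median was -0.0799. The list pools genes that promote death with genes that oppose it (BCL2 and MCL1), so its median gives no direction. BBC3 (PUMA) had 413, 510 and 653 counts (log2 fold change 0.603 at 100 nM, interval 0.424 to 0.785). PMAIP1 (NOXA) had 663, 819 and 931 (0.432, interval 0.288 to 0.579). BCL2 had 0.408 (interval 0.349 to 0.468) and TNFRSF10B 0.135 (interval 0.0676 to 0.202), and these 4 genes had the intervals above 0. BAK1, the lowest, had -0.567 (interval -0.681 to -0.454). BAX, with the highest mean level, had 2701, 2690 and 2621, and MCL1 had 5948, 4933 and 5286.

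Of 8 genes of the tribbles family and of ATF4 turnover, 6 were tested and 0 were called at 100 nM, beside the same background. COP1, a ubiquitin ligase that works with tribbles proteins, had 1483, 1539 and 1591 counts, and EP300, an acetyltransferase that binds ATF4, had 3014, 3086 and 3355. TRIB1 had 595, 412 and 474 counts, and so did not share the rise of TRIB3.

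The targets of ATF6 and XBP1, factors of the other branches of the unfolded protein response, were mostly lower. Of 25, all tested, 2 were called lower at 100 nM, SDF2L1 and MANF, beside 0.474% of all genes called lower, and 0 were called higher. Neither call was made with an assumed coefficient of variation of 0.2. The interval lay below 0 for 20 of the 25, beside 25.3% of all genes, and above 0 for 4, beside 24.0%. XBP1 itself, also listed with the bZIP factors, is among those 4. The median was -0.312 at 100 nM and -0.177 at 50 nM. SDF2L1, a chaperone partner, had 864, 458 and 373 counts, and MANF had 1347, 843 and 651. CALR, the most abundant, had 33552, 25031 and 21108 counts, HSP90B1 had 26031, 19302 and 16852, and HSPA5 (BiP) had 18101, 11928 and 10090.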

How the data were processed

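Reads of a stranded mRNA kit were aligned by the authors with Rsubread against hg19, and the deposited values are raw counts per gene. A deposited table holds EBSeq comparisons made by the authors (posterior probabilities and fold changes), of which only identifiers and symbols were used here. Its 4 columns of mean values per condition were not used. Symbols came from RefSeq.

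Libraries were scaled with TMM in edgeR 4.0.16 (R 4.3.3) over the genes that reached 10 counts in any library. An exact binomial test, two-sided (scipy 1.17.1, smaller tail doubled), compared the libraries in pairs, with Benjamini-Hochberg adjustment over all 12879 genes, 0.5 counts added for log2 fold changes, and 95% Clopper-Pearson intervals. Intervals of ratios to ATF4 used the normal approximation of log counts. The doubled tail and the genes used for TMM were chosen after seeing that other forms gave a different number of called genes from an earlier analysis of these data, so the match to that number is not independent. The other forms are among the alternatives, which further were DESeq2 1.42.0 size factors, total counts, other filters, a fold of 1.5, 5 counts added, and edgeR's exact test with assumed biological coefficients of variation of 0.1, 0.2 and 0.4.

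The members and lists were chosen with earlier results of these data known. Genes named were the members, genes of other lists called at 100 nM, the 2 most abundant of each list, and the 3 genes nearest to each called member. Others (EIF2AK1, EIF2AK2, EIF2AK3, EIF2AK4, PPP1R15B, OMA1, DELE1, EIF2S2, EIF2B4, CEBPD, CEBPE, EGR1, FLT3, SPI1, CD14, CD3E, CD2, BBC3, PMAIP1, BCL2, TNFRSF10B, BAK1, TRIB1, HSPA5, GDF15, FGF21 and the antisense partners) were named after their values were seen. Overlaps, introns and untranslated regions came from GENCODE 44 on GRCh37. The procedure was tested on simulated data that held counting error only. That simulation had no spread between replicates, so it does not cover this source of error. One label writes the higher dose with another unit, and 100 nM was taken from the title and design.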

Additional observations from a re-analysis of the deposited data

How the results depend on the processing

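The 2 calls among the members at 100 nM held under both other scalings, both other count filters, both forms of TMM and of the p, and an assumed coefficient of variation of 0.1. At 1.5-fold, 4 of 8 members passed at 100 nM against DMSO, all higher, beside 555 of all 12879 genes called higher. At 100 nM against 50 nM 1 of 8 passed, also higher, beside 88 of all 12879 genes. With an assumed coefficient of variation of 0.2 or 0.4, 0 members passed at 100 nM against DMSO, and 2 and 0 when p up to 0.05 was left unadjusted.

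The number of genes called (283 at 100 nM, 123 at 50 nM and 64 between the doses) moved more. In the same order it was 69, 20 and 6 at a mean of at least 100 counts, where fewer genes are tested, 864, 332 and 143 at 1.5-fold, and 138, 27 and 15 with an assumed coefficient of variation of 0.1. With 0.2 it was 12 (all higher), 0 and 4 (257, 120 and 90 at an unadjusted p), and with 0.4 it was 0, 0 and 0 (46, 18 and 27 at an unadjusted p). Alternatives chosen after seeing the data were the p of all outcomes no more likely than the one seen, which gave 303, 137 and 80 genes, TMM over all genes, which gave 282, 120 and 64, and both together, which gave 303, 136 and 80.

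For the 8 tested members in 3 comparisons, no log2 fold change reversed with DESeq2 size factors, total counts, 5 counts added or an assumed coefficient of variation. With DESeq2 size factors or total counts, 24 of 24 kept their side of the adjusted p (adding counts does not alter this p), 23 of them (all but ATF3 at 50 nM) passing. With assumed coefficients of variation of 0.1, 0.2 and 0.4, 21, 23 and 23 of those 23 no longer passed. Of all 12879 genes, 5550 passed the adjusted p of the main exact binomial test, without a fold, at 100 nM against DMSO. At 50 nM against DMSO 3632 passed, and at 100 nM against 50 nM 2182. The spread between replicates cannot be estimated from these libraries, and depth limits NUPR1, with at most 6 counts. No paired analysis was possible because each condition has 1 library.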

Other observations

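Immediate early genes, which respond to growth signals and to stress, were also read. Of 24, 22 were tested, and 2 were called higher (JUN and KLF2) and 1 lower (NR4A1) at 100 nM against DMSO, beside 1.72% and 0.474% of all genes. There 6 had a counting interval above 0 and 7 below it, beside 24.0% and 25.3%, and the median log2 fold change was -0.0506. At 50 nM against DMSO, 4 intervals lay above 0 and 8 below, beside 18.6% and 18.5% of all genes, and the median was -0.168. EGR1 (313, 126 and 170 counts) was called lower there, beside 0.256% of all genes. At 100 nM against 50 nM, 9 lay above 0 and 0 below, beside 12.5% and 14.3% of all genes, with a median of 0.157. At 100 nM against DMSO with an assumed coefficient of variation of 0.1, JUN alone was called, and with 0.2 none of the list was. KLF2 had 9 counts with DMSO, 23 at 50 nM and 30 at 100 nM, and NR4A1 had 31, 19 and 15. MYC, the most abundant, had 21175, 28215 and 33596 counts and was not called, and ZFP36, which speeds mRNA decay, had 3433, 3007 and 3484. Of this list, 4 genes are also among the bZIP factors, and other lists share genes too. Also in another list are 6 bZIP factors, 2 ATF6 and XBP1 targets, 1 gene listed with the eIF2 kinases and 1 myeloid leukemia marker.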
